A study of Mus musculus with 4 samples.

Results

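The family described here comprises 10 genes that let phagocytes find and engulf dying cells: the receptors Lrp1, Mertk, Axl, Timd4, Stab1 and Cd36, the integrin subunits Itgav and Itgb5, and the soluble bridging molecules Mfge8 and Gas6. They were chosen by symbol and are 10 of the 27998 genes in the count tables. RNA was counted in single CD45+ cells of the nasal mucosa of C57BL/6 mice aged 8 weeks, in 4 libraries with 1 library per group. Vehicle mice received neither ribavirin nor ovalbumin, Vehicle-OVA mice received the allergen ovalbumin (OVA) with vehicle, Ribavirin mice received the antiviral ribavirin, and Ribavirin-OVA mice received both. The number of mice behind a library is not given in the sources used here, so every interval covers counting error only, and a difference between libraries cannot be told apart from a difference between animals or cell preparations.

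Macrophages clear apoptotic cells through several parallel systems, a process called efferocytosis. Some receptors, such as Timd4 and Stab1, bind phosphatidylserine exposed on the dying cell directly, whereas the receptor tyrosine kinases Mertk and Axl bind it through the bridging protein Gas6, and the integrin αvβ5, built from Itgav and Itgb5, binds it through Mfge8. Lrp1 is a large endocytic receptor that recognises calreticulin on dying cells, and Cd36 is a scavenger receptor that also takes up oxidised lipids.

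All 10 gene identifiers of the files matched protein-coding genes of the GENCODE annotation of GRCm38 (mm10), the build of the files. Of the receptors, Lrp1 lies on chr10:127538161-127621148, Mertk on chr2:128698956-128802894, Axl on chr7:25757273-25788705, Timd4 on chr11:46810800-46844332, Stab1 on chr14:31139013-31168641 and Cd36 on chr5:17781690-17888801. The integrin genes Itgav and Itgb5 lie on chr2:83724397-83806916 and chr16:33829665-33949338. The bridging genes Mfge8 and Gas6 lie on chr7:79133768-79149060 and chr8:13465374-13494490.

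The 250 bases before the RefSeq start (GRCm38.p6) are shown for 4 receptors: Lrp1, Stab1 and Axl, whose levels separated the macrophage states described below, and Mertk, whose levels in those states overlapped. Capitals mark a GC box (GGGCGG or, on the other strand, CCGCCC) or the core bound by the myeloid factor PU.1 (GAGGAA or TTCCTC).
Lrp1, chr10:127621149-127621398, minus strand: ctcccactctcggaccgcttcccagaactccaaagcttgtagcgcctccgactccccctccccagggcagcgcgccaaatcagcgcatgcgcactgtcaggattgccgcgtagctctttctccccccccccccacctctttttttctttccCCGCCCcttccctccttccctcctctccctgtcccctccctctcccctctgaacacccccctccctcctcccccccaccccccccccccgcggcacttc
Mertk, chr2:128698665-128698914, plus strand: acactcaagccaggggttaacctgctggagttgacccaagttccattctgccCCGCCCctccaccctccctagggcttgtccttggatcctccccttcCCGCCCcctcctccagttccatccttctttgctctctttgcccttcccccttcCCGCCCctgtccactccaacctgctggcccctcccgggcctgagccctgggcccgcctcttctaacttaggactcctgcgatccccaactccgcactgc
Stab1, chr14:31168642-31168891, minus strand: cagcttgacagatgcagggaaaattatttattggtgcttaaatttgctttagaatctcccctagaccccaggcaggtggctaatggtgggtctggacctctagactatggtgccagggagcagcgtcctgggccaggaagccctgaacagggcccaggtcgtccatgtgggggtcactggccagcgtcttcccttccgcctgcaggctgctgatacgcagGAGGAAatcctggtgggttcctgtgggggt
Axl, chr7:25788734-25788983, minus strand: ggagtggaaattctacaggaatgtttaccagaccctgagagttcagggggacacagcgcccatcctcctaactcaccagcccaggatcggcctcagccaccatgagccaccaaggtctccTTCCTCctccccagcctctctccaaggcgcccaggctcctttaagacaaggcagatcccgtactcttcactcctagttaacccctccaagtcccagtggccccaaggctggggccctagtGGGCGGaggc
A GC box stood in this window of 7 members (Lrp1, Mertk, Axl, Cd36, Itgb5, Mfge8 and Gas6), against 32.7% of all 32851 promoters of the same length. The PU.1 core stood in 4 members (Axl, Stab1, Itgav and Mfge8), against 23.3%. The AP-1 site TGACTCA (4.46% of promoters) and the palindrome that STAT6 prefers, TTC and GAA with any 4 bases between, (5.85%) were found in 0 of the 10 windows, and the nuclear receptor core AGGTCA (14.0%) in those of Timd4 and Cd36. Both strands were searched, none of the motifs lies inside another, and a match describes the window and not the use of a site. The Lrp1 window was rich in G and C (67.2%, with 13 CG dinucleotides), whereas that of Stab1 held 57.2% and 5, against medians of 52.4% and 6 over all promoters.

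After filtering, 22834 Vehicle, 16221 Vehicle-OVA, 18651 Ribavirin and 8498 Ribavirin-OVA cells were grouped into classes without using the 10 genes, with median depths from 3366 to 5056.5 UMIs (unique molecules counted) per cell. From 57 to 174 cell barcodes were shared by a pair of libraries. The libraries labelled CD45+ also held epithelial-like and olfactory neuron-like cells. Macrophages fell into states kept apart throughout. Arg1/Ccl24 cells numbered 49 in Vehicle, 2047 in Vehicle-OVA, 80 in Ribavirin and 1446 in Ribavirin-OVA. Cxcl13 cells numbered 1943, 157, 1510 and 177 in the same order, so each state was common where the other was scarce. Arg1, an arginase of alternatively activated macrophages, stood at 4311 CPM (a gene's UMIs scaled to all UMIs of the class and library) in the Arg1/Ccl24 cells of Vehicle-OVA and 3575 in those of Ribavirin-OVA, against 1.94 to 159 in Cxcl13 cells of the 4 libraries. The Arg1/Ccl24 cells of Vehicle held 374 CPM of Arg1 and 2 UMIs of Ccl24, both low for the state, and Cxcl13 itself was only 20.8 CPM in the Cxcl13 cells of Ribavirin-OVA against 205 to 355 in the others. The Arg1/Ccl24 cluster and another group led by Ly6i and Cxcl9 each had a marker of another class and none of macrophages among the 10 leading genes, and are called by their genes. A microglia-like state carried P2ry12.

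The family was mostly, but not wholly, a set of macrophage genes. In Vehicle, among classes and states of at least 50 cells, which leaves out its 49 Arg1/Ccl24 cells, 7 of the 10 members were highest in a macrophage state: Lrp1, Mertk, Itgb5 and Gas6 in microglia-like cells, and Axl, Stab1 and Itgav in Cxcl13 cells, with the intervals of Itgav in Cxcl13 and microglia-like cells overlapping. Timd4 was highest in conventional dendritic cell-like (cDC-like) cells, Cd36 in epithelial-like cells and Mfge8 in olfactory neuron-like cells. The Mfge8 level there rested on 23 UMIs (27.2 to 64.4 CPM). Its interval overlapped those of type 2 innate lymphoid cell-like cells (14.9 to 53.4) and epithelial-like cells (13.8 to 29.6). Among the receptors, Mertk reached 307 CPM in microglia-like and 83.4 in Cxcl13 cells but 1.62 in cDC-like, 0.394 in T cell-like and 0.484 in neutrophil-like cells. Stab1 reached 355 CPM in Cxcl13 cells and 144 in microglia-like cells, and 3.88 to 9.44 in monocyte-like, cDC-like, T cell-like and neutrophil-like cells. Lrp1 had a wider range of cells: 370 CPM in microglia-like, 321 in monocyte-like, 143 in Ly6i/Cxcl9, 135 in Cxcl13 and 74.0 in neutrophil-like cells, with the first pair of these not separated by their intervals. The integrin subunits did not follow each other, since Itgb5 was 736 CPM in microglia-like and 4.14 in T cell-like cells, whereas Itgav was 56.5 and 48.4 in the same classes.

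**Figure D1:**
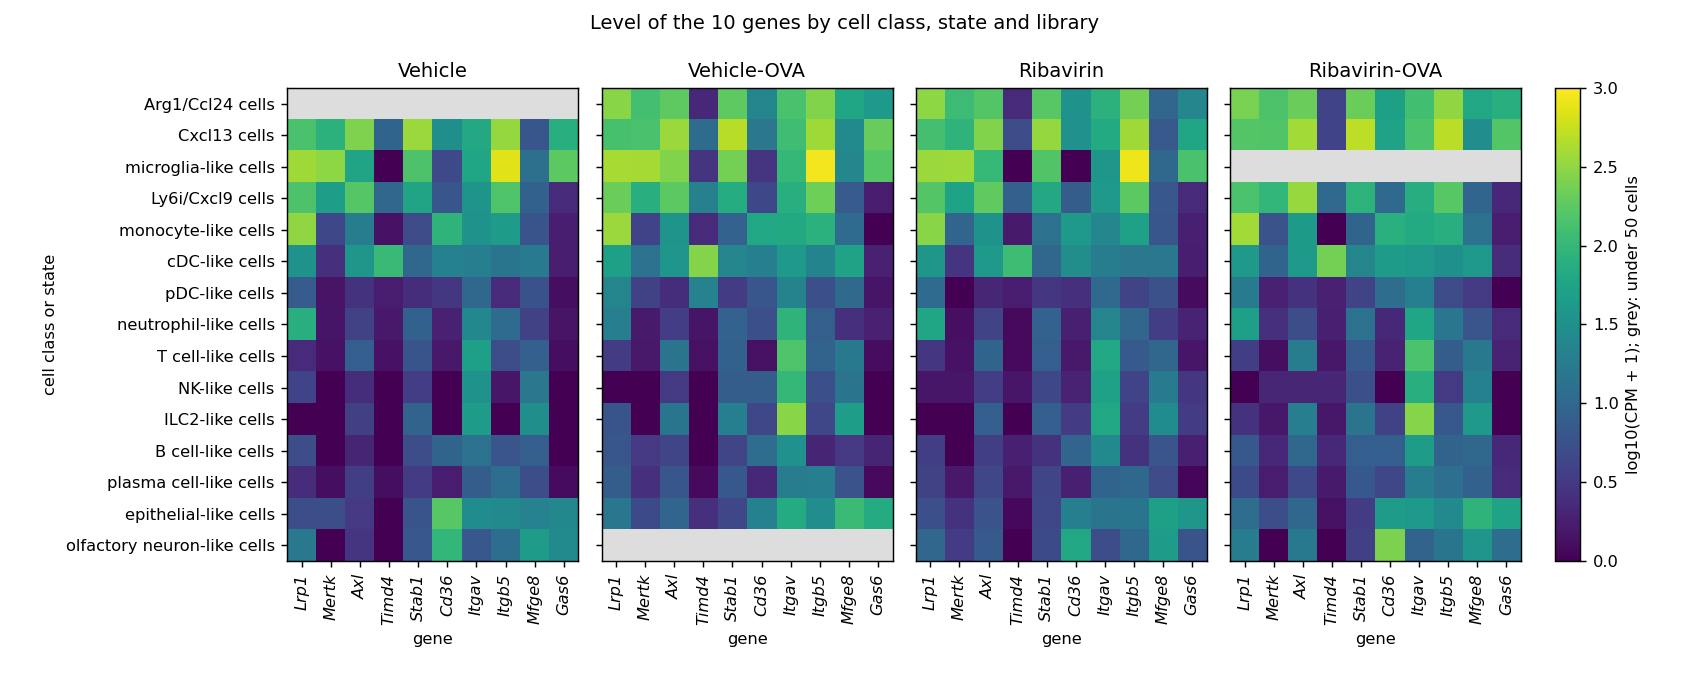
Level of each gene (columns) in each class or state (rows) of the 4 libraries, as log10(CPM + 1) by colour; grey marks classes with under 50 cells. The rows of Arg1/Ccl24, Cxcl13 and microglia-like cells are the brightest for most genes, Timd4 is bright in cDC-like cells only, and Itgav stands out of the dark rows of lymphoid cells.

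The genes most like a member over 57 sums of a class or state and library were found by Pearson's r of log2(CPM + 1), a description in which sums of 1 library share its depth and sums of 1 class share its cells. The nearest genes to Lrp1 were Csf1r (r = 0.94), AI607873 and Card9, those to Mertk were Bach2os (0.94), C3ar1 and C1qc, those to Stab1 were Gm13710 (0.94), Bach2os and C1qa, and those to Gas6 were Ctsf (0.90), C4b and Snx24. Timd4, Itgav, Mfge8 and Cd36 had looser neighbours: Timd4 was nearest to Tlr11 (0.86), Apol7c and Zfp366, Itgav to Slc2a9 (0.82), Maf and Kif1c, Mfge8 to Ppp2r3a (0.80), Endod1 and C2cd2, and Cd36 to Lima1 (0.79), Nav1 and Stom. Among the members themselves the closest pairs were Mertk with Itgb5 (0.94), Mertk with Stab1 (0.91) and Axl with Stab1 (0.90).

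The first comparison asked how the receptor set of the Arg1/Ccl24 cells, the state common in OVA libraries, differed from that of the Cxcl13 cells common without OVA. Lrp1, Itgav, Mertk and Mfge8 were higher in Arg1/Ccl24 cells of Vehicle-OVA than in Cxcl13 cells of Vehicle, and Stab1, Timd4 and Gas6 were lower. That made 4 members higher and 3 lower by at least 1.5-fold, against 30.4% of all 10937 genes with at least 50 UMIs higher and 14.5% lower (44.9% in either direction). The share of members past the fold, 7 of 10, was read against that background and is not a test. The median gene was higher by 0.24 on the log2 scale, and relative to it 3 members were higher and 5 lower. In the same comparison of Ribavirin-OVA with Ribavirin, 5 members were higher and 1 lower (background 30.6% higher and 42.6% in either direction), or 3 and 3 relative to a median gene that was higher by 0.27. The median member was at -0.38 in the vehicle pair and 0.48 in the ribavirin pair on the log2 scale, so the family as a whole had no common direction. Beside these ratios, the summed level of 13 neutrophil markers was 829, 2204, 1998 and 827 CPM in Arg1/Ccl24 cells of Vehicle, Vehicle-OVA, Ribavirin and Ribavirin-OVA and 502, 1413, 884 and 519 CPM in Cxcl13 cells, against at least 80290 CPM in neutrophil-like cells. Of the 13 markers, 11 to 13 had a UMI in each of these groups, and Ly6g was at 0 in Arg1/Ccl24 cells of Vehicle and Ribavirin and in Cxcl13 cells of both OVA libraries. Their part in the ratios was not tested. Markers of other classes, such as monocytes, are not given beside these ratios, and their part was not tested either. Monocyte-like cells held 291 to 380 CPM of Lrp1 and 3.88 to 12.5 CPM of Stab1 over the 4 libraries. How macrophage-like the Arg1/Ccl24 and Cxcl13 cells were is not compared here.

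Lrp1 was the receptor with the steadiest difference. It stood at 274 CPM in the few Arg1/Ccl24 cells of Vehicle (129 UMIs), 294 in those of Vehicle-OVA (6154 UMIs), 308 in those of Ribavirin (246 UMIs) and 247 in those of Ribavirin-OVA (3826 UMIs). In Cxcl13 cells it stood at 135 CPM in Vehicle, 133 in Vehicle-OVA, 128 in Ribavirin and 155 in Ribavirin-OVA. No Cxcl13 value reached the lowest Arg1/Ccl24 value. Lrp1 was 2.18-fold higher in the vehicle pair (95% interval 2.08 to 2.29) and 1.94-fold higher in the ribavirin pair (1.84 to 2.05). Inside single libraries, where both states shared the preparation, the folds were 2.03 in Vehicle, 2.22 in Vehicle-OVA, 2.41 in Ribavirin and 1.60 in Ribavirin-OVA. Between OVA and no OVA, Lrp1 was 0.983-fold in Cxcl13 cells and 1.07-fold in Arg1/Ccl24 cells under vehicle, and 1.21-fold and 0.803-fold under ribavirin. In the Ly6i/Cxcl9 cells Lrp1 was 1.499-fold under vehicle (1.33 to 1.69) and 0.895-fold under ribavirin (0.738 to 1.08).

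Stab1, a scavenger receptor of resident macrophages, showed the opposite order. Its level was 355 CPM in Cxcl13 cells of Vehicle, 474 in Vehicle-OVA, 337 in Ribavirin and 499 in Ribavirin-OVA, and 119, 182, 164 and 210.0 CPM in the Arg1/Ccl24 cells of the same libraries. The groups did not overlap. It was 0.511-fold in the vehicle pair (0.491 to 0.532), 0.623-fold in the ribavirin pair, and 0.335-fold, 0.384-fold, 0.487-fold and 0.421-fold within Vehicle, Vehicle-OVA, Ribavirin and Ribavirin-OVA. Axl, which uses Gas6 as its ligand, was also lower in Arg1/Ccl24 cells of every library. Its levels were 262, 355, 268 and 383 CPM in Cxcl13 cells of Vehicle, Vehicle-OVA, Ribavirin and Ribavirin-OVA, and 208, 178, 155 and 213 CPM in Arg1/Ccl24 cells, again without overlap. Within libraries Axl was 0.794-fold, 0.501-fold, 0.580-fold and 0.556-fold in that order, without exception on the lower side. Itgb5, the β5 chain that carries Mfge8 binding, was 236, 269, 234 and 320 CPM in Arg1/Ccl24 cells and 338, 371, 369 and 493 CPM in Cxcl13 cells, again without overlap. Within libraries its ratios lay between 0.634-fold and 0.724-fold, passing 1.5-fold within Ribavirin and Ribavirin-OVA, and it was 0.794-fold in the vehicle pair and 0.866-fold in the ribavirin pair.

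Itgav and Mertk passed 1.5-fold in both pairs of libraries but not between the states of 1 library. Itgav, the αv chain, was 68.0, 137, 82.7 and 124 CPM in the Arg1/Ccl24 cells of Vehicle, Vehicle-OVA, Ribavirin and Ribavirin-OVA, and 63.4, 121, 67.1 and 142 CPM in Cxcl13 cells. In both states its OVA libraries were the higher ones. The pair ratio of 2.15 (2.01 to 2.31) therefore met ratios of 1.07, 1.13, 1.23 and 0.873 within Vehicle, Vehicle-OVA, Ribavirin and Ribavirin-OVA, of which none passed 1.5-fold. Mertk, the kinase receptor best known for efferocytosis, was 108, 126, 111 and 144 CPM in Arg1/Ccl24 cells of the same libraries and 83.4, 137, 87.6 and 151 CPM in Cxcl13 cells, so its states overlapped. It was 1.51-fold higher in the vehicle pair (1.42 to 1.61) and 1.64-fold in the ribavirin pair, and 1.30-fold, 0.919-fold, 1.27-fold and 0.953-fold within Vehicle, Vehicle-OVA, Ribavirin and Ribavirin-OVA. Within libraries, 5 of 10 members passed 1.5-fold in Vehicle (background 40.5%), 6 of 9 in Vehicle-OVA (32.2%), 7 of 10 in Ribavirin (36.0%) and 6 of 10 in Ribavirin-OVA (26.1%). The count for Vehicle takes in Timd4, which had 0 UMIs in those 49 cells, and Mfge8, which had 5. The count for Ribavirin takes in Timd4 at 0.317-fold (0.00789 to 1.83), on 1 UMI in 80 Arg1/Ccl24 cells. It also takes in Mfge8, at 0.59 on the log2 scale on 7 UMIs there, which changed sign under several alternatives. In the 2 pairs the state and the OVA treatment change together and cannot be told apart.

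**Figure D2:**
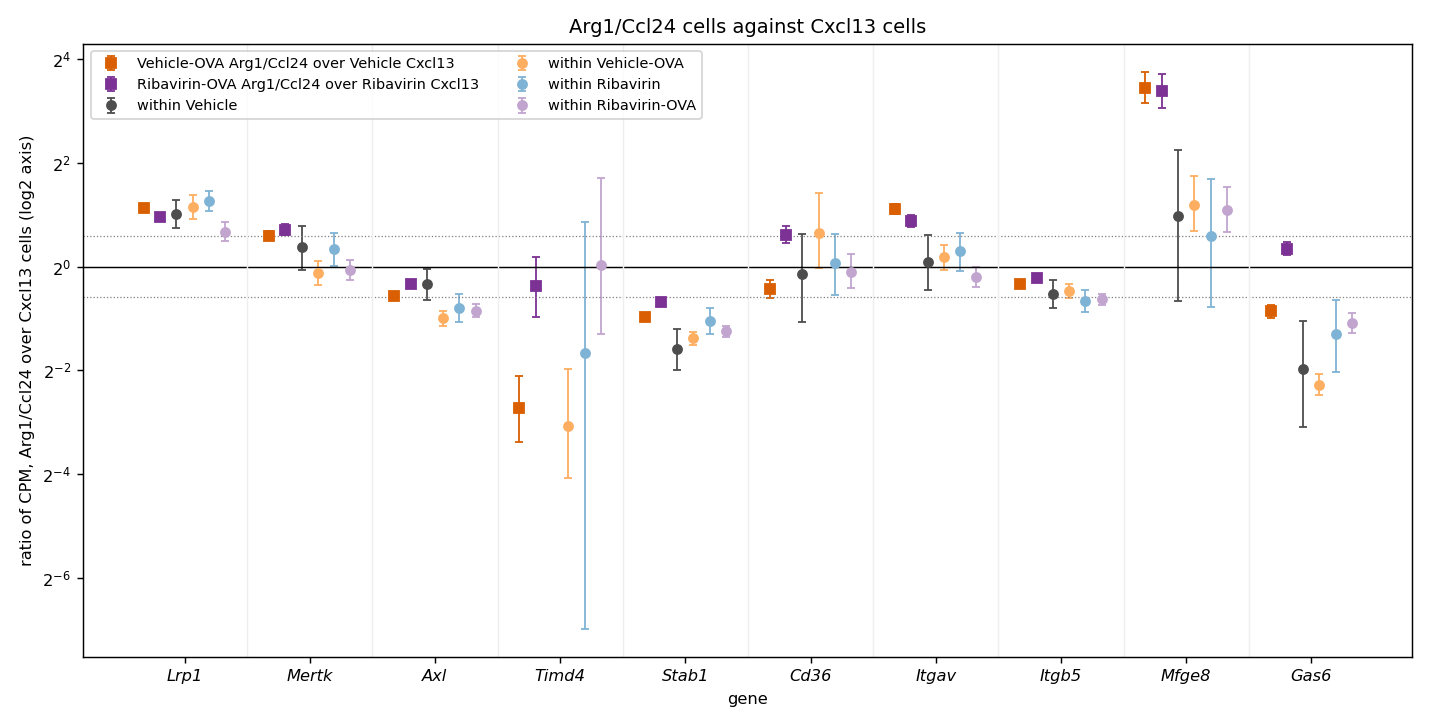
Ratio of CPM in Arg1/Ccl24 cells over Cxcl13 cells for each gene on a log2 axis, with 95% counting intervals; squares are the 2 pairs of libraries, circles the 4 comparisons inside a library, and dotted lines 1.5-fold. Lrp1 lies above 1 and Stab1, Axl and Itgb5 below 1 in all 6 comparisons, while Itgav and Mertk lie higher in both pairs than inside any library. Timd4 is not drawn within Vehicle, where it had no UMI in Arg1/Ccl24 cells.

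The bridging molecules gave less even differences. Gas6 was 74.8, 199, 58.3 and 158 CPM in Cxcl13 cells of Vehicle, Vehicle-OVA, Ribavirin and Ribavirin-OVA, and 19.1, 41.1, 23.8 and 74.4 CPM in Arg1/Ccl24 cells. Within each library it was lower in Arg1/Ccl24 cells, at 0.256-fold, 0.207-fold, 0.408-fold and 0.470-fold within Vehicle, Vehicle-OVA, Ribavirin and Ribavirin-OVA. Across the pairs it was 0.550-fold in the vehicle pair but 1.28-fold in the ribavirin pair. Mfge8, the αvβ5 bridge, was 58.7 and 60.9 CPM in Arg1/Ccl24 cells of Vehicle-OVA and Ribavirin-OVA, 8.77 CPM in those of Ribavirin (7 UMIs), and 5.35, 25.6, 5.84 and 28.6 CPM in Cxcl13 cells. Those levels gave the largest ratios of the family, 10.96 in the vehicle pair (8.95 to 13.6) and 10.4 in the ribavirin pair.

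In Vehicle-OVA, however, a single cell held 738 of the 1228 Mfge8 UMIs of the Arg1/Ccl24 cells (60.1%), and the next cell 94. That cell had 31393 UMIs in all, with 177 of Arg1, 176 of the macrophage gene C1qa and 0 of the epithelial genes Epcam and Krt18. Without the highest cell of each side the Mfge8 ratio of the vehicle pair was 4.46, and without the highest 1% of cells 2.90. In Ribavirin-OVA the highest cell held 192 of 942 UMIs, and the ratio of the ribavirin pair went to 8.62 and then 4.98. Within Vehicle-OVA the ratio of 2.30 went to 0.999 and 0.537, and within Ribavirin-OVA that of 2.13 went to 1.88 and 0.972, so a state difference in Mfge8 inside a library rested on those cells. Only 9.67% of the Arg1/Ccl24 cells of Vehicle-OVA held any Mfge8 UMI, where the same UMIs spread evenly by depth would reach 40.5%.

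Cd36 and Gas6 were also held by a minority of cells, unlike Lrp1. In the Arg1/Ccl24 cells of Vehicle-OVA, Cd36 was seen in 7.23% of cells against 19.7% if spread evenly and Gas6 in 13.1% against 31.6%, whereas Lrp1 was seen in 71.2% against 81.3%. Cells with Gas6 in that state had more Retnla, a product of alternatively activated macrophages (832 against 55.9 CPM in cells without Gas6), more of the chemokine gene Ccl8 (6322 against 455) and more Folr2, a resident macrophage gene (99.8 against 10.7), and the same 3 genes were higher beside Gas6 in Ribavirin-OVA. These cells were also deeper, at a median of 13601 against 8466 UMIs, and the part of depth in the difference was not tested. Cells with Cd36 carried more of the elastase gene Mmp12 (1802 against 423 CPM), of the scavenger receptor Marco (32.4 against 0.692) and of Gpnmb and Lpl. They too were deeper, at a median of 13619 against 8900 UMIs. In Cxcl13 cells of Vehicle, where depth was alike (9796 against 9928 UMIs), Gas6 went with the resident macrophage genes Cd163 (147 against 4.51 CPM) and Folr2. It also went with F13a1, which was among the markers used to name monocyte-like cells.

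**Figure D3:**
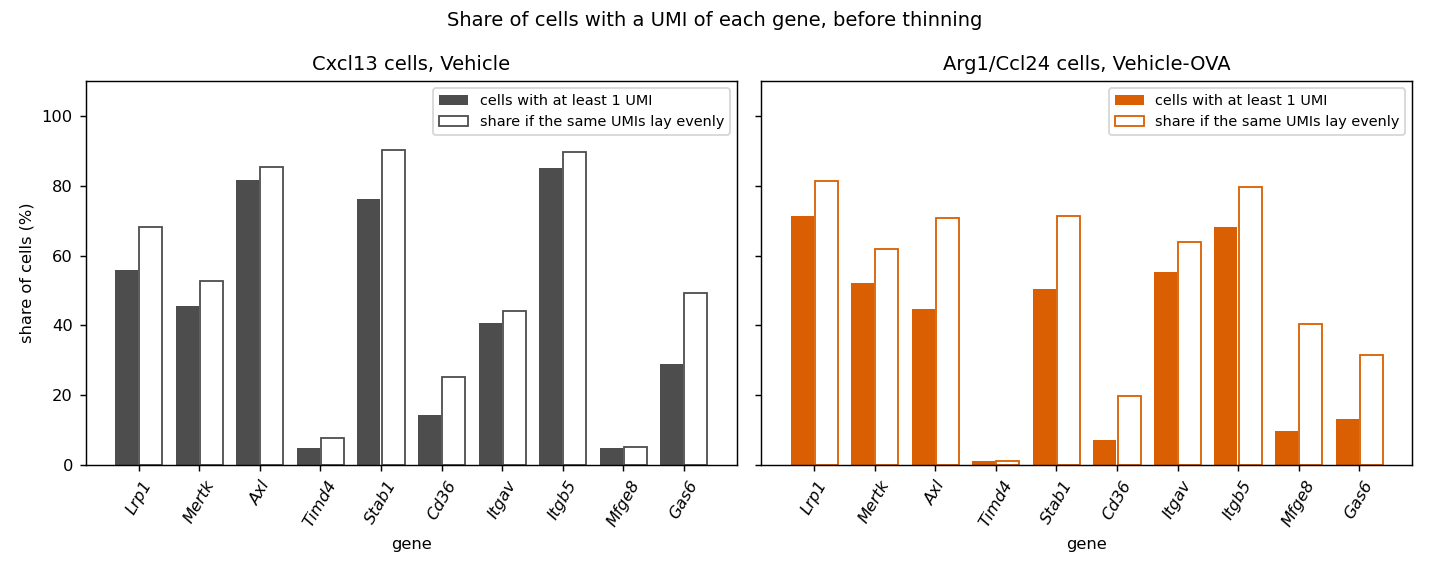
Share of cells with at least 1 UMI of each gene (filled bars) and the share that the same UMIs would reach if spread evenly by depth (open bars), in Cxcl13 cells of Vehicle and Arg1/Ccl24 cells of Vehicle-OVA, without thinning. The open bar is far above the filled bar for Mfge8 (40.5% against 9.67%), Gas6 and Cd36 in Arg1/Ccl24 cells, and close to it for Lrp1 and Itgav.

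A finer grouping showed where within the resident cells these receptors sat. Inside the Cxcl13 cells and their neighbours, a cluster of 196 cells of Vehicle led by Lyve1 and Folr2, genes of perivascular macrophages, held 871 CPM of Stab1, 346 of Gas6, 104 of Cd36 and 43.1 of Timd4 (29 UMIs). The cluster richest in Cxcl13 (950 cells) held 481, 112, 42.7 and 9.12 CPM of the same genes, and one led by Col14a1 (983 cells) 163, 11.1, 10.9 and 4.79. Stab1, Gas6, Cd36 and Timd4 therefore ran in the same order over the 3 clusters. The Lyve1 cluster took no class name and was shallow. Its cells had a median of 0.377 times the median UMIs of their library, against 2.25 and 2.43 times in the Cxcl13-rich and Col14a1 clusters. Axl did not follow that order, at 143, 269 and 260 CPM, and neither did Itgb5, at 230, 314 and 354 CPM. The clusters are described by values and not tested. They were formed from the most variable genes, with the members left out.

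The Ly6i/Cxcl9 cells, an inflammatory group common without OVA, carried the family at a lower level than the Cxcl13 cells beside them. They also differed in cell type markers. In Vehicle 10 monocyte markers summed to 4901 CPM in Ly6i/Cxcl9 and 460 in Cxcl13 cells, and 10 macrophage markers to 19624 and 69214. At the finer grouping a cluster of 3161 cells led by Ly6i was named monocyte-like. The part of this difference in the ratios was not tested. In Vehicle 7 of 10 members were lower by 1.5-fold and 0 were higher (background 16.2% lower, 25.3% in either direction), and in Ribavirin 6 were lower and 1 higher (15.8% and 25.6%). Gas6 nearly vanished, at 1.31 CPM against 74.8 in Vehicle, and Stab1 stood at 55.3 against 355. Cd36 was 5.43 against 30.6 CPM. Lrp1 was not lower, at 143 against 135 CPM in Vehicle, or 1.06-fold (1.00 to 1.11). Timd4 was 8.91 against 8.19 CPM in Vehicle, or 1.09-fold (0.880 to 1.35), and was the member higher in Ribavirin, at 1.84-fold (1.34 to 2.54).

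So that shares of cells could be compared across depths, each cell was sampled down to 1000 UMIs, which left out 126 of 2047 Arg1/Ccl24 cells of Vehicle-OVA and 62 of 1943 Cxcl13 cells of Vehicle as too shallow. Lrp1 was then found in 22.6% of the first (20.8 to 24.6) and 12.4% of the second. Without thinning it was found in 71.2% and 55.9%. T cell-like cells, which should lack Lrp1, held it after thinning in 0.0970% in Vehicle and 0.137% in Vehicle-OVA, the level that free RNA could give. Stab1 was found in 12.8% and 27.4%, Axl in 12.8% and 21.5%, Mertk in 10.7% and 6.86%, and Gas6 in 2.71% and 7.87% of the same 2 groups of macrophages. The order of the states was thus that of the CPM for all 5 genes. Thinning to 5000 UMIs kept 1483 of 2047 Arg1/Ccl24 cells of Vehicle-OVA and 1678 of 1943 Cxcl13 cells of Vehicle. At least 3 members were then found together in 73.4% of Cxcl13 cells of Vehicle, 66.9% of Arg1/Ccl24 cells of Vehicle-OVA and 32.3% of Ly6i/Cxcl9 cells of Vehicle. Gas6 shared a cell with Mertk or Axl in 17.6% of these Cxcl13 cells and 6.47% of these Arg1/Ccl24 cells. The states lay closer in the ribavirin pair. At least 3 members were found in 73.9% of Cxcl13 cells of Ribavirin and 72.3% of Arg1/Ccl24 cells of Ribavirin-OVA, and Gas6 with Mertk or Axl in 15.2% and 12.7%.

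The next comparison asked what differed with OVA inside a state. In Cxcl13 cells, the ligand and bridge genes differed most: Gas6 was 2.66-fold higher with OVA under vehicle (2.32 to 3.05) and 2.71-fold higher under ribavirin, and Mfge8 4.77-fold and 4.89-fold higher, from 102 and 90 UMIs without OVA to 32 and 48 UMIs in far fewer cells with it. Itgav was 1.90-fold and 2.11-fold higher and Mertk 1.65-fold and 1.72-fold higher. Axl (1.35 and 1.43) and Stab1 (1.33 and 1.48) were on the same side without reaching 1.5-fold. Long transcripts ran higher in this comparison as well, with median log2 ratios under vehicle of -0.41 in the shortest of 10 equal length bins and 0.51 in the longest (-0.42 and 0.46 in the ribavirin arm). Under vehicle Axl (0.44) and Stab1 (0.41) lay below the medians of their own bins (0.46 and 0.51). The part of length was not tested. In all, 4 members were higher and 1 lower under vehicle and 5 higher under ribavirin, where 41.7% and 37.3% of all genes passed the fold (30.7% higher under vehicle and 26.7% under ribavirin) and the median gene was higher by 0.30 and 0.27 (log2). Relative to that median, 3 members were higher and 1 lower in each arm. Only 157 and 177 Cxcl13 cells remained with OVA, and their median depth in Vehicle-OVA was 6108 UMIs against 9891 in Vehicle. The Gas6 ratio also depended on the clustering: with each library clustered on its own no Cxcl13 state was found in the OVA libraries, and over all clusters that were named macrophage-like (here the Cxcl13 and microglia-like cells) the log2 ratio of Gas6 under vehicle was then -0.70, and 0.050 at a finer clustering, against 1.22 as clustered here. The neutrophil markers given above were higher with OVA in Cxcl13 cells under vehicle but lower under ribavirin.

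In Arg1/Ccl24 cells, which without OVA numbered 49 and 80, the same members stood on the higher side with OVA. Gas6 was 2.15-fold and 3.12-fold higher under vehicle and ribavirin, Mfge8 5.53-fold and 6.95-fold, and Itgav 2.01-fold and, just short of the fold, 1.495-fold. In all, 4 of 9 members passed 1.5-fold under vehicle and 2 of 9 under ribavirin, where 47.4% and 41.7% of all genes did in either direction and 34.8% and 29.5% were higher. The Mfge8 ratios rest on 5 and 7 UMIs without OVA.

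In Cxcl13 cells, Cd36 was the 1 member whose OVA ratios had intervals on opposite sides of 1 in the 2 arms. Over all 61 pairs of a member and a class that could be compared in both arms, 5 did so, against 6.82% of 91785 pairs of any gene and the same 11 classes, a share near that background. Both intervals lay above 1 in 31 of the 61 pairs, against 31.4% of the pairs of any gene. Cd36 in Cxcl13 cells was 30.6 CPM in Vehicle and 14.4 in Vehicle-OVA (18 UMIs), but 31.98 in Ribavirin and 52.4 in Ribavirin-OVA. The ratio was 0.470 under vehicle (0.276 to 0.749) and 1.64 under ribavirin (1.29 to 2.06). The single cell with most Cd36 held 19 of the 88 UMIs in Ribavirin-OVA. The difference between the arms was not tested, as each arm has 1 library with OVA.

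**Figure D4:**
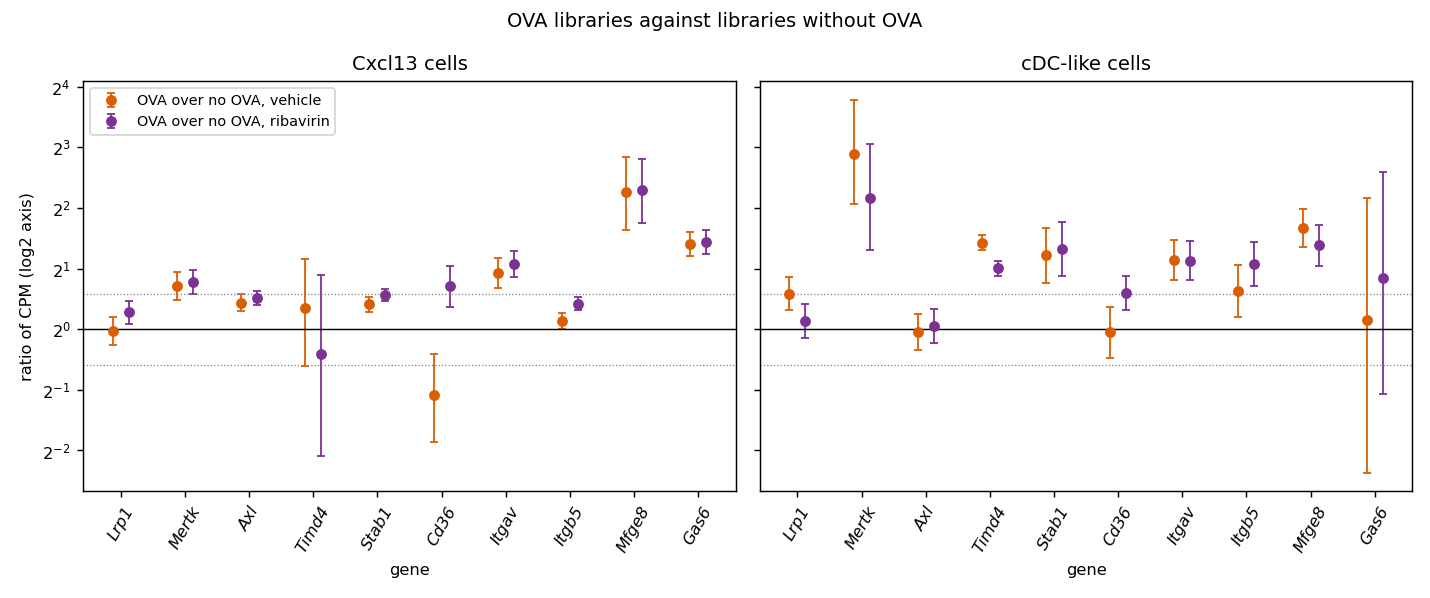
Ratio of CPM with OVA over without OVA for each gene in Cxcl13 cells (left) and cDC-like cells (right), under vehicle and under ribavirin, on a log2 axis with 95% counting intervals and dotted lines at 1.5-fold. In Cxcl13 cells Mfge8 and Gas6 lie highest in both arms and Cd36 on opposite sides of 1; in cDC-like cells Mertk, Mfge8 and Timd4 lie above 1.5-fold in both arms.

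Timd4, a phosphatidylserine receptor known from resident macrophages, was in these libraries a gene of cDC-like cells. It stood at 103 CPM there in Vehicle (1148 UMIs), 277 in Vehicle-OVA, 117 in Ribavirin and 234 in Ribavirin-OVA, and cDC-like cells held 74.1%, 86.8%, 86.5% and 89.9% of all Timd4 UMIs of their libraries. Macrophages had far less: 8.19, 10.4, 3.96 and 2.97 CPM in Cxcl13 cells and 1.24 CPM in the Arg1/Ccl24 cells of Vehicle-OVA (26 UMIs). Timd4 was 2.69-fold higher in cDC-like cells with OVA under vehicle (2.46 to 2.93) and 2.00-fold higher under ribavirin (1.83 to 2.19). Without thinning it was seen in 28.8% of these cells in Vehicle, 40.4% in Vehicle-OVA, 30.7% in Ribavirin and 27.7% in Ribavirin-OVA. The same UMIs spread evenly by depth would reach 60.5%, 81.3%, 67.6% and 76.7%. In Ribavirin-OVA the highest cell held 77 of 829 UMIs. Without the highest 1% of cells the level was 182 CPM there and 103 in Ribavirin. Timd4 lay in the cluster with Cd209a and Xcr1 at 114 CPM in Vehicle, 311 with OVA, 127 in Ribavirin and 283 in Ribavirin-OVA. In the Ccr7 cluster, the migratory type, it went from 40.9 CPM in Vehicle to 253 in Vehicle-OVA and from 100 in Ribavirin to 130 in Ribavirin-OVA, whereas a small Xcr1 cluster held 50.3 and 39.9 CPM without OVA and 7.76 and 2.65 with it (2 and 1 UMIs).

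With Timd4, other members were higher in cDC-like cells with OVA, 7 of the 9 that could be compared in each arm in all, where 39.1% of all genes were higher under vehicle and 38.5% under ribavirin (46.8% and 45.4% in either direction). Relative to a median gene that was higher by 0.42 and 0.43 on the log2 scale, 5 of 9 were. Mfge8 was 3.18-fold and 2.60-fold higher, Stab1 2.33-fold and 2.51-fold, Itgav 2.21-fold and 2.19-fold. Mertk had 18 and 21 UMIs without OVA and 40 and 29 UMIs in far fewer cells with it, or 7.44-fold and 4.49-fold higher levels. Axl stayed at 0.967-fold and 1.04-fold.

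Itgav was the one receptor chain that reached lymphoid cells. In type 2 innate lymphoid cell-like (ILC2-like) cells it stood at 43.4 CPM in Vehicle (16 UMIs), 293 in Vehicle-OVA (174 UMIs), 60.002 in Ribavirin (26 UMIs) and 287 in Ribavirin-OVA (497 UMIs). With OVA this was the highest Itgav level of any class, above the 121 to 142 CPM of Cxcl13 cells. The OVA ratio was 6.76 under vehicle (4.05 to 12.1) and 4.78 under ribavirin (3.22 to 7.38). In T cell-like cells Itgav went from 48.4 to 147 CPM and from 59.4 to 142 CPM, or 3.03-fold and 2.38-fold, and in neutrophil-like cells from 23.9 to 88.9 and from 22.3 to 56.9, or 3.72-fold and 2.56-fold. T cell-like cells held 31.8% of all Itgav UMIs in Vehicle, and neutrophil-like cells 34.7% in Vehicle-OVA, where they were 10601 of 16221 cells. Its αv partner Itgb5 stayed at 4.14 to 7.97 CPM in T cell-like cells of the 4 libraries.

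**Figure D5:**
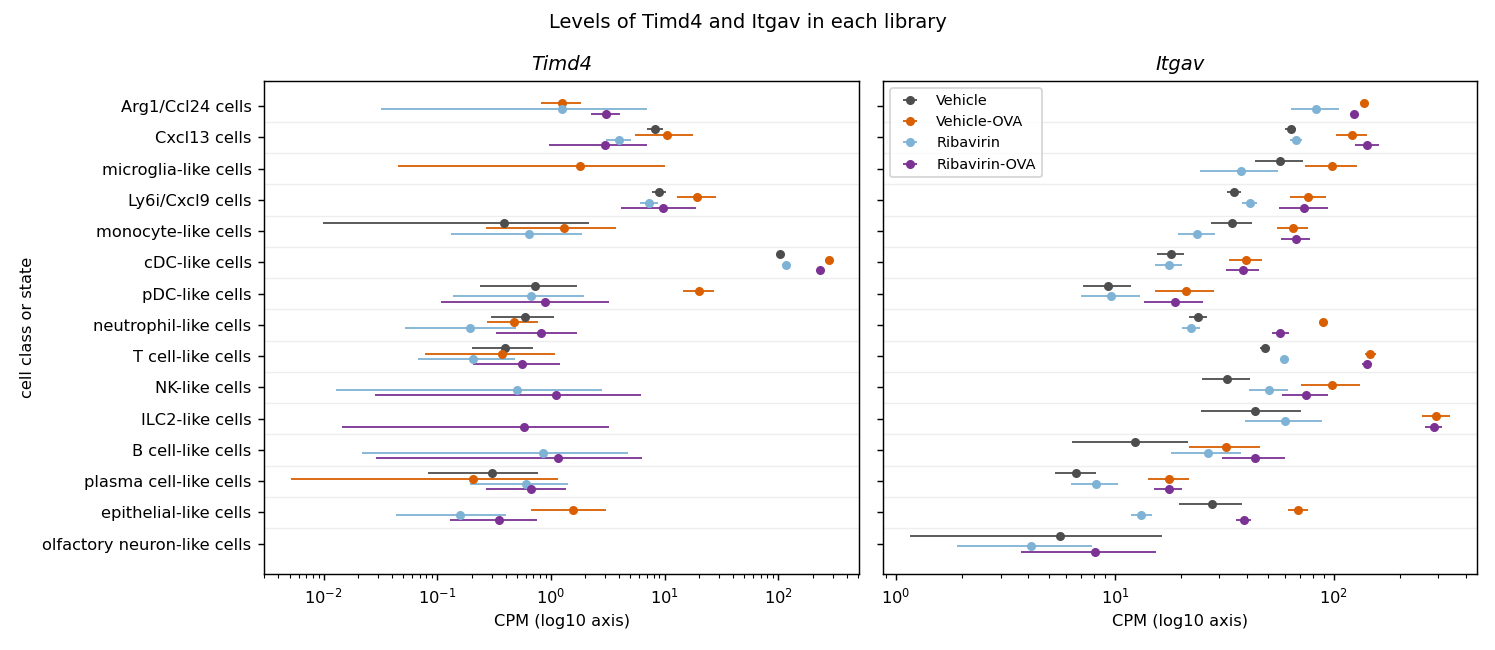
CPM of Timd4 (left) and Itgav (right) in each class or state on a log10 axis, by library, with 95% counting intervals; classes with no UMI of the gene or under 50 cells in a library are not drawn. Timd4 lies near or above 100 CPM in cDC-like cells and at or below 20.1 CPM in every other class (that value, in pDC-like cells of Vehicle-OVA, comes from 40 UMIs of 1 cell and 1 of another), and Itgav is higher with OVA in every class measured on both sides, most in ILC2-like cells.

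The remaining myeloid classes differed by member. Monocyte-like cells had 321, 354, 291 and 380 CPM of Lrp1 in the 4 libraries, ordered as above, higher than the Cxcl13 cells of every library, and hardly any Mertk, at 3.01 to 8.60 CPM. In microglia-like cells Axl went from 55.6 CPM in Vehicle to 272 in Vehicle-OVA (4.89-fold) and was 3.35-fold higher under ribavirin, where 40 cells remained. Axl was not the only member to differ there, as Stab1 went from 144 CPM in Vehicle to 236 in Vehicle-OVA. Lrp1, Mertk and Itgb5 lay between 1.10-fold and 1.31-fold in both arms. Neutrophil-like cells had 74.0 CPM of Lrp1 in Vehicle and 18.3 in Vehicle-OVA, a ratio of 0.247, but 58.3 and 48.0 under ribavirin. The median gene of neutrophil-like cells was itself lower by 0.77 on the log2 scale with OVA under vehicle and higher by 0.33 under ribavirin. The clusters behind every OVA ratio of this class differed as well. With OVA, its cluster led by Siglecf went from 2851 to 558 cells under vehicle and from 1833 to 708 under ribavirin. A cluster led by Hspa1b went from 129 to 4072 and from 142 to 366. The part of this make-up in the ratios was not tested.

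The last comparisons asked what ribavirin changed. Without OVA, 1 of 10 members of Cxcl13 cells passed 1.5-fold, against 4.17% of all genes in either direction and 1.66% lower: Timd4, at 0.483-fold (0.353 to 0.653), with 156 UMIs in Vehicle and 61 in Ribavirin. Gas6 was 0.780-fold (0.717 to 0.849), and Lrp1, Mertk, Axl, Stab1, Cd36, Itgav, Itgb5 and Mfge8 lay between 0.947-fold and 1.09-fold. In the finer grouping described above, the Lyve1 cluster held 196 cells of Vehicle and 94 of Ribavirin. Another cluster, in the Cxcl13 state and led by Ccl7, held 9 and 244. What part this make-up had in the Timd4 and Gas6 ratios was not tested. With OVA, 3 of 10 members of Arg1/Ccl24 cells were higher in Ribavirin-OVA than in Vehicle-OVA, against 5.99% of all genes higher and 10.4% in either direction. These were Timd4 (2.45-fold, from 26 to 47 UMIs), Cd36 (2.16-fold, 1.93 to 2.43) and Gas6 (1.81-fold, 1.65 to 1.98). Timd4 was held by 22 of 2047 cells in Vehicle-OVA and 19 of 1446 in Ribavirin-OVA. In Ribavirin-OVA the highest cell had 11 of its UMIs and the next 10. Without the highest cell of each library the Timd4 ratio was 2.12, and without the highest 1% of cells 3.39. With each library clustered on its own Cd36 alone passed, at 1.21 on the log2 scale, while Timd4 was at 0.19 and Gas6 at 0.41. Lrp1 was 0.841-fold (0.808 to 0.876). Mfge8 was 1.04-fold, but 2.07-fold once the highest cell of each library was left out. In Cxcl13 cells with OVA, Cd36 was again higher, 3.64-fold (2.18 to 6.43), on 18 UMIs in Vehicle-OVA, as 1 of 9 members past 1.5-fold (background 4.52% higher and 10.8% in either direction).

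Beyond the family, 38 of 45 other genes of apoptotic cell clearance had at least 50 UMIs in the states compared. In the vehicle pair 15 were higher in Arg1/Ccl24 cells, 9 lower and 14 within 1.5-fold, where 30.4% of all genes were higher and 44.9% passed in either direction, and in the ribavirin pair 16, 8 and 14 (30.6% and 42.6%). The oxidised lipid receptor Olr1 was 82.5-fold and 28.6-fold higher in the 2 pairs, Itgb3, another β chain that pairs with αv, 10.5-fold and 12.9-fold, and the lipid-sensing receptor Cd300lb 9.06-fold and 11.1-fold. Olr1 was also among the 10 leading genes of neutrophil-like clusters led by Hspa1b and Rsad2. Vehicle-OVA gave 4072 of the 4709 and 1181 of the 1324 cells of these clusters. The part of neutrophil RNA in the Olr1 ratios was not tested. At the other end were Marco (0.127 and 0.214) and the complement gene C1qb (0.247 and 0.311), both ligands or receptors of dying cells, with C1qc (0.362) in the vehicle pair and Cd14 (0.414) in the ribavirin pair. Long transcripts ran higher in these pairs, with a median of 0.38 (log2) for the longest of 10 equal length bins of genes and -0.36 for the shortest in the vehicle pair. Lrp1, Stab1 and Itgav are all in the longest bin and moved in different directions, and the part of length was not tested.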

How the data were processed

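CD45+ cells of nasal mucosa gave 4 libraries, 1 per group. The authors deposited whole-number UMI counts per gene and cell, made with Cell Ranger 5.0.0 on mm10 per the labels. The extract protocol names magnetic beads and the design text a cell sorter. The deposited tables held 28277, 19143, 21401 and 10311 cells with 171873110, 102796247, 168064152 and 91742940 UMIs for Vehicle, Vehicle-OVA, Ribavirin and Ribavirin-OVA.

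Cells were kept from 200 genes and 500 UMIs upwards, below 10% mitochondrial UMIs, and the highest doublet scores (Scrublet in scanpy 1.11.5) were removed at 0.4% per 1000 barcodes, 3.62% to 11.2% of a library. The 4 libraries were clustered together without batch correction (2000 variable genes without the 10 members, 30 components, 15 neighbours, Leiden resolution 1) under Python 3.11.15. A cluster took a class name only with at least 3 detected markers and no conflict among its 10 leading genes. Counts were summed per class and library. Intervals are 95% exact Poisson (levels), conditional binomial (ratios) or Clopper-Pearson (shares) and cover counting error only. A ratio passed at 1.5-fold for genes with at least 50 UMIs over both sides. With 1 library per group no test was possible and no p-value is given. Calculations were tested on simulated data.

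The members, gene lists and comparisons were chosen with earlier results of these data known. Genes beyond the members were named by rank: the 3 of highest r and the 3 furthest of the 45 list genes in each direction by a rule set with the design, and, chosen after values were seen, genes among the 5 highest beside Gas6 or Cd36. The genes of highest r to Itgb5 and Axl are not reported here. Alternatives changed the cell filters, doublet calls, clustering, thresholds and summary.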

Additional observations from a re-analysis of the deposited data

Results flagged for a closer look

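Of 61 pairs of a member and a class measured with and without OVA in both arms, 5 had intervals on opposite sides of 1 under vehicle and under ribavirin (6.82% of all gene and class pairs did) and 31 were higher in both arms (31.4% of all pairs). Each arm has 1 library with OVA, so the difference between the arms was not tested.

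Cd36 took 3 of the 5. Its ratio in Cxcl13 cells was 0.470 under vehicle and 1.64 under ribavirin. In monocyte-like cells Cd36 was 0.698-fold and 1.92-fold. In epithelial-like cells it was 0.122-fold and 2.40-fold, where the class went from 139 to 163 cells under vehicle and from 610 to 341 cells under ribavirin, and from a median of 5977 to 25279 UMIs per cell under vehicle.

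Neutrophil-like cells gave the other two. Itgb5 was 0.698-fold under vehicle and 1.60-fold under ribavirin, and Mfge8 was 0.522-fold and 2.05-fold. The median gene of neutrophil-like cells was at -0.77 under vehicle and 0.33 under ribavirin on the log2 scale. The part of that shift, and of the change of clusters given above for this class, was not tested.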

How the results depend on the processing

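Of the counts of members past a fold and the shares of cells, 198 values under alternatives stayed within 1.5 times the reported count or within its spread and 12 did not. With 2-fold in place of 1.5-fold, 4 members passed in the vehicle pair (7 reported), 1 in the ribavirin pair (6), 4 within Ribavirin (7) and 3 within Ribavirin-OVA (6). Within Ribavirin 4 also passed at Leiden resolution 2.0 and with states taken from single-cell UMIs. Within Vehicle 8 passed with the members kept among the variable genes (5 reported). With doublets kept, 2 passed between Ribavirin and Vehicle in Cxcl13 cells (1 reported) and 8 between Vehicle-OVA and Vehicle in macrophage-like cells, the Cxcl13 and microglia-like cells together (5 reported). With each library clustered on its own, 1 passed between Ribavirin-OVA and Vehicle-OVA in Arg1/Ccl24 cells (3 reported), and no Cxcl13 state was found in the OVA libraries. Without thinning, Lrp1 was found in 71.2% of Arg1/Ccl24 cells of Vehicle-OVA and 55.9% of Cxcl13 cells of Vehicle. The causes were not tested.

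Of the log2 ratios of single members, 1212 kept their value within counting error, 450 moved and 15 changed sign. Mfge8 within Ribavirin, on 7 UMIs, changed sign under 7 alternatives: -0.58 with mitochondrial UMIs under 20%, -0.0039 with at least 1000 UMIs and 500 genes, -0.94 with doublets kept, -0.043 and -0.020 at resolutions 0.5 and 2.0, -0.12 with automatic doublet calls and -0.084 with states from single-cell UMIs. Mfge8 within Vehicle-OVA was -0.44 when single-cell CPM were averaged, -0.0011 without the highest cell and -0.90 without the highest 1%, and within Ribavirin-OVA -0.040 without the highest 1%. Cd36 was -0.71 within Vehicle-OVA when single-cell CPM were averaged and -0.26 in the ribavirin pair with at least 1000 UMIs and 500 genes. Gas6 between Vehicle-OVA and Vehicle in macrophage-like cells was -0.70 when libraries were clustered separately, and Itgb5 in cDC-like cells under vehicle -0.19 with doublets kept. Leaving out the highest cells and the automatic doublet calls were chosen after seeing the data. No paired analysis was possible because each group has 1 library.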

Other observations

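Outside the immune classes, epithelial-like cells held much of both bridging molecules. Mfge8 stood there at 20.6 CPM in Vehicle, 111 in Vehicle-OVA, 49.2 in Ribavirin and 88.0 in Ribavirin-OVA, and Gas6 at 24.2, 69.0, 38.2 and 52.2 CPM. Epithelial-like cells held 56.1% of all Mfge8 UMIs in Ribavirin and 45.6% in Ribavirin-OVA, and 44.7% and 34.4% of those of Gas6, although they were 3.27% and 4.01% of the cells kept. In Vehicle, where they were 0.609% of cells, Cxcl13 cells held 80.4% of the Gas6 UMIs. These libraries were enriched for CD45+ cells, so the share of epithelial-like cells is not that of the tissue.

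In plasmacytoid dendritic cell-like cells Timd4 was 20.1 CPM in Vehicle-OVA against 0.723 in Vehicle, 0.671 in Ribavirin and 0.892 in Ribavirin-OVA. Of its 41 UMIs in Vehicle-OVA, 40 lay in 1 cell, and 2 of 203 cells held any; without that cell the level was 0.499 CPM.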
